A study of Mus musculus with 35 samples.

Results

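miR-135b and miR-135a were followed in the livers of 35 mice, and they are all the assays named miR-135, 2 of the 376 miRNA assays on a real-time PCR array (mmu-miR-135b and mmu-miR-135a). miR-135b was chosen by its measured values, a low level at days 7 and 15 after N-ethyl-N-nitrosourea (ENU) and a high level at later days, so its differences from the controls are given as a description with no test. miR-135a came with it by its name, as the paralog, and it was tested.

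The mice were 6-month-old female Big Blue transgenic mice, a line that carries a bacterial reporter gene for mutation assays in all its cells. ENU, a DNA-ethylating mutagen, was injected once into the peritoneum at 120 mg/kg in 28 mice, and the liver was taken at posttreatment day (PTD) 1, 3, 7 or 15 (n = 5 each) or at PTD 30 or 120 (n = 4 each). The 7 controls received the vehicle dimethylsulfoxide (DMSO), and the labels place 3 of them at day 1 and 4 at day 30. Each mouse had 1 array, so every n below counts mice.

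MicroRNAs are short RNAs cut from a hairpin precursor, and bases 2 to 8 from the 5′ end, the seed, pair with target mRNAs. The miR-135 family is known for repressing the mRNA of APC, the tumour suppressor that restrains Wnt signalling, and miR-135b is known for being raised in colorectal tumours. miR-135a is known from the brain, where it acts in serotonergic neurons. Neither miRNA is among the characteristic miRNAs of hepatocytes, whose dominant miRNA is miR-122.

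The mouse genome holds 3 miR-135 genes in the RefSeq annotation of build GRCm38.p6. Mir135b lies at chr1:132198088-132198184 on the plus strand, within the bounds of the protein-coding gene Lemd1. Mir135a-1 lies at chr9:106154124-106154213 on the plus strand, within the bounds of Glyctk, and 24.6 kb from Mirlet7g, the gene of let-7g. Mir135a-2 lies at chr10:92072086-92072185 on the minus strand, 9.6 kb from Rmst, a long noncoding RNA gene of neural tissue. The hairpins and the mature forms that RefSeq lists are printed because the 2 assays have to tell these paralogs apart. The mature form miR-135b-5p is not printed here. In the hairpins the capitals mark AUGGCUU, the seed of miR-135a-5p, and in the mature forms they mark the form's own seed.

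Mir135b hairpin: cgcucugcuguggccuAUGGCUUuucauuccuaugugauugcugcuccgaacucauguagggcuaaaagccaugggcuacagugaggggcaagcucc
Mir135a-1 hairpin: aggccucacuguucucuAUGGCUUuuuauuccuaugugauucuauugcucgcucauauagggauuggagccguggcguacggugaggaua
Mir135a-2 hairpin: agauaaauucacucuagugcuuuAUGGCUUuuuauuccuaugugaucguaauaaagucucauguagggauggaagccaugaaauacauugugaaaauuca
miR-135a-5p: uAUGGCUUuuuauuccuauguga
miR-135b-3p: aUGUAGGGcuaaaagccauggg
miR-135a-1-3p: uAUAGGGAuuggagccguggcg
miR-135a-2-3p: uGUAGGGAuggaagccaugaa

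AUGGCUU occurs 1 time in each of the 3 hairpins, near the 5′ end. The Mir135b hairpin was identical to that of Mir135a-1 at 66.3% of the aligned columns and to that of Mir135a-2 at 61.5%, while the Mir135a hairpins matched each other at 67.0%. These shares are for whole hairpins. The stretch of the Mir135b hairpin that lines up with miR-135a-5p differs from it only by a c in place of a u after AUGGCUUuu. miR-135a-5p is the same 23 bases in both Mir135a genes, so its assay cannot separate them. The assay names give no arm of the hairpin, and how far the miR-135a and miR-135b assays cross-detect was not tested.

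The measured quantity is the threshold cycle (Ct), the PCR cycle in which fluorescence passes a fixed line, and more RNA gives a lower Ct. Expression is given as -ΔCt, the mean Ct of 4 reference RNAs (U6, snoRNA142, snoRNA202 and snoRNA251) minus the Ct of the miRNA, which is a log2 scale. Both members were read in all 35 arrays. In the controls the mean Ct was 29.7 for miR-135b and 32.1 for miR-135a, the 205th and the 294th lowest of 376 assays, against a median of 29.1. miR-122, the hepatocyte marker, had the lowest mean Ct of all, 14.2. The instrument software put the flag NAW on 2 of the 70 wells of the members. One was miR-135b in replicate 5 of PTD 15, with a Ct of 39.7, and the other was miR-135a in replicate 2 of PTD 15, with a Ct of 38.9.

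By the run times in the files, the arrays fall into 3 run periods. Run period 1 holds runs 1 to 22, with the 3 controls labelled day 1, 4 samples of PTD 1 and every sample from PTDs 3, 7 and 15. Run period 2 holds runs 23 to 33, with 2 controls labelled day 30, replicate 4 of PTD 1 and every sample from PTDs 30 and 120. The other 2 controls labelled day 30 make up run period 3. Of the wells that hold no miRNA assay, 2 check the reverse transcription. Their control well difference, first minus second Ct, was positive in 12 arrays and negative in 23. The reference RNAs had a mean Ct of 21.8 ± 0.514 (SD, n = 7) in the controls, and group means from 21.6 to 22.5 after ENU.

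The -ΔCt of miR-135b was highest at PTDs 30 and 120 and lowest at PTD 15. In the controls it ranged from -9.68 to -6.47 with a median of -7.51 and a mean of -7.97 ± 1.29 (SD, n = 7). The controls were not alike across run periods, with -8.98, -7.17 and -7.51 in run period 1, -6.47 and -6.79 in run period 2, and -9.21 and -9.68 in run period 3. The pair of run period 3 lay below the other 5 controls.

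At PTD 1 the 5 mice had -6.65, -7.75, -7.64, -9.79 and -7.07 of -ΔCt for miR-135b. Replicate 4, the sample run in run period 2, was the lowest and lay below all controls, while the other 4 lay within the range of the controls. The mean was -7.78 ± 1.21 (SD, n = 5), which is 0.20 above the control mean on the log2 scale.

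At PTD 3 the 5 mice split. Replicates 1 and 2 had -7.68 and -7.66, within the range of the controls, and replicates 3, 4 and 5 had -12.69, -10.37 and -12.15, below every control. The mean was -10.11 ± 2.39 (SD, n = 5), lower than that of the controls by 2.13 on the log2 scale.

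At PTD 7 the values were -11.75, -12.52, -12.53, -10.71 and -11.06, and at PTD 15 they were -11.42, -12.96, -13.46, -12.23 and -16.13. All 10 samples lay below the lowest control. PTD 7 had a mean of -11.71 ± 0.83 (SD, n = 5) and PTD 15 one of -13.24 ± 1.79 (SD, n = 5). Against the controls these were 13.4-fold and 38.5-fold lower, or -3.74 and -5.27 on the log2 scale. Without replicate 5, the well with the NAW flag, PTD 15 lay at -4.54, and with every Ct above 35 set to 35 it lay at -4.08. A differentially expressed miRNA (DEM) was one past both thresholds of the study, fold change over 2 and unadjusted p below 0.01, here from limma over all 376 miRNAs. The rule called 7.45% of them as lower at PTD 7 and 4.79% at PTD 15. Since miR-135b was chosen for these differences, nothing is read from its place among them.

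At PTD 30 the 4 mice had -5.27, -5.77, -5.72 and -6.06 for miR-135b, all above the highest control. At PTD 120 they had -5.60, -5.25, -6.09 and -6.49, and 3 of the 4 lay above all controls. The means of -5.70 ± 0.328 (SD, n = 4) and -5.86 ± 0.543 (SD, n = 4) were 4.83-fold and 4.33-fold above the control mean, or 2.27 and 2.12 on the log2 scale. The median difference over all 376 miRNAs was 0.54 at PTD 30 and 0.46 at PTD 120, and the limma rule called 1.6% of them as higher at PTD 30 and 1.33% at PTD 120.

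Ordered by mean -ΔCt, miR-135b ran from PTD 30 through PTD 120, PTD 1, the controls, PTD 3 and PTD 7 to PTD 15. Of these 6 neighbouring pairs only PTD 120 and PTD 1 had ranges that did not overlap, 1.92 apart in their means. The other 5 pairs overlapped, PTDs 7 and 15 and PTDs 30 and 120 among them.

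**Figure D1:**
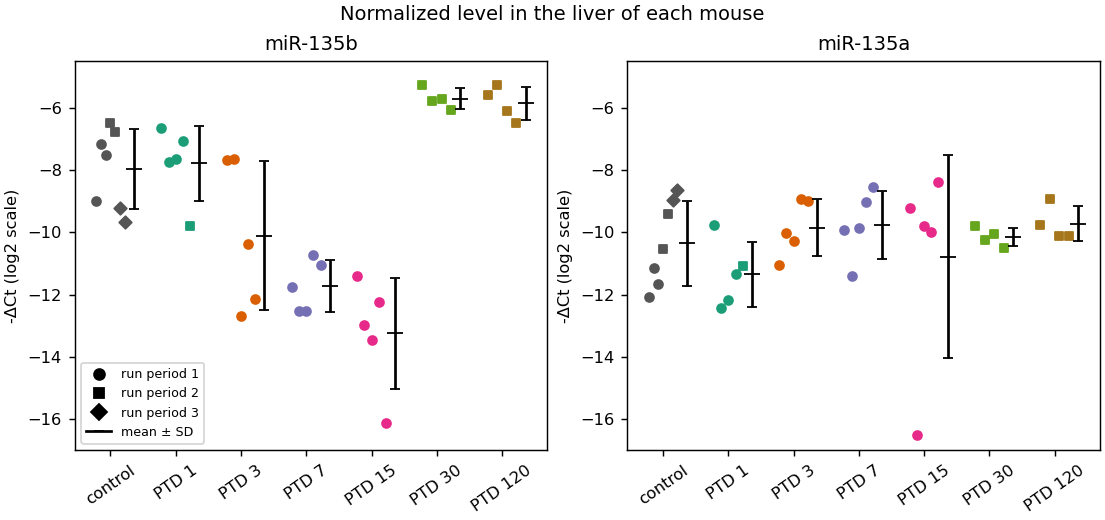
The vertical axes give -ΔCt on a log2 scale for miR-135b (left) and miR-135a (right) in the controls and at the 6 PTDs. Each symbol is 1 mouse, its shape gives the run period, and the black bars give the mean ± SD. All miR-135b values at PTDs 7 and 15 lie under the lowest control at -9.68, and miR-135a overlaps the controls in every group.

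Against all 7 controls, miR-135a did not pass the test at any PTD. In the controls its -ΔCt ranged from -12.09 to -8.65 with a median of -10.54 and a mean of -10.35 ± 1.36 (SD, n = 7). By run period the controls had -12.09, -11.15 and -11.66 in period 1, -10.54 and -9.42 in period 2, and -8.96 and -8.65 in period 3. These 3 sets of controls did not overlap, and their order was not that of miR-135b, whose controls were lowest in period 3.

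At PTD 1 miR-135a was at -9.76, -12.43, -12.17, -11.07 and -11.32, and at PTD 3 it was at -11.04, -10.01, -10.27, -8.91 and -8.99. At PTD 7 it was at -9.94, -11.41, -9.86, -9.02 and -8.55. At PTD 15 it was at -9.22, -16.52, -9.79, -9.99 and -8.38, where replicate 2 is the well with the NAW flag. The values at PTD 30 were -9.80, -10.24, -10.04 and -10.50, and those at PTD 120 were -9.77, -8.92, -10.11 and -10.11. Each of the 6 ENU groups overlapped the controls, and so did all neighbours in the order of the means, which ran from PTD 120 at -9.73 ± 0.563 (SD, n = 4) to PTD 1 at -11.35 ± 1.06 (SD, n = 5).

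The log2 difference of miR-135a from the controls was -1.0 at PTD 1 (SE 0.65, 95% interval -2.40 to 0.39, limma, adjusted p = 0.669). It was 0.51 at PTD 3 (SE 0.64, -0.87 to 1.88, limma, adjusted p = 0.865) and 0.60 at PTD 7 (SE 0.66, -0.82 to 2.01, limma, adjusted p = 0.609). At PTD 15 it was -0.43 (SE 1.19, -3.0 to 2.13, limma, adjusted p = 0.816), and 1.0 without the well of replicate 2. At PTDs 30 and 120 it was 0.21 (SE 0.63, -1.15 to 1.56, limma, adjusted p = 0.865) and 0.62 (SE 0.65, -0.78 to 2.03, limma, adjusted p = 0.642). Exact permutation tests of the same differences, two-sided, gave unadjusted p values between 0.194 and 0.830. Of all miRNAs the rule called 1.33% at PTD 1 and 2.13% at PTD 3. It called 9.84% at PTD 7, 11.4% at PTD 15, 1.6% at PTD 30 and, in the last group, PTD 120, 1.33%. The intervals are wide, and a difference of 2-fold, 1 on the log2 scale, lies inside each of them in at least 1 direction.

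Because the 7 controls span 3 run periods, a second comparison took for each PTD only the controls that shared its run period. For miR-135b the log2 differences from the 3 controls of run period 1 were 0.61 at PTD 1 (4 samples) and -2.22 at PTD 3, and reached -3.82 and -5.35 in the groups of PTDs 7 and 15. Against the 2 controls of run period 2 it was higher by 0.93 at PTD 30 and 0.77 at PTD 120, on the log2 scale, less than the values of 2.27 and 2.12 against all 7. All 4 samples of PTD 30 and 3 of the 4 of PTD 120 still lay above both of these controls. The median over all miRNAs in these comparisons was 0.04 at PTD 30 and -0.02 at PTD 120. Of all miRNAs 0.798% were called higher at PTD 30 and 0% at PTD 120.

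For miR-135a the same step raised the value at PTDs 1, 3, 7 and 15 by much the same amount and lowered it at PTDs 30 and 120, and its sign turned at PTDs 1, 15 and 30. Within run period 1 it was higher than in the 3 controls by 1.79 at PTD 3 (SE 0.54, limma, adjusted p = 0.112) and by 1.88 at PTD 7 (SE 0.58, limma, adjusted p = 0.0265), and both values pass the DEM rule. All 5 samples of PTD 3 and 4 of the 5 of PTD 7 lay above these 3 controls. In the same comparisons 7.71% of all miRNAs were called higher at PTD 3 and 26.9% at PTD 7, and the median over all miRNAs was 0.63 and 0.84. The 3 controls were runs 1 to 3, and all samples of PTDs 3 and 7 came later, from run 8 on. For miR-135a too, time after ENU and place in the run order cannot be told apart here. With the controls labelled day 30 its values were -0.45 at PTD 3 and -0.36 at PTD 7. At PTDs 1 and 15 the values within run period 1 were 0.21 and 0.85, in place of -1.0 and -0.43. Within run period 2 they were -0.17 at PTD 30, in place of 0.21, and 0.25 at PTD 120. None of these 4 was called. Among all miRNAs the rule called 40.4% in the PTD 15 comparison within run period 1, and 1.06%, 0.798% and 0% in those of PTDs 1, 30 and 120.

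**Figure D2:**
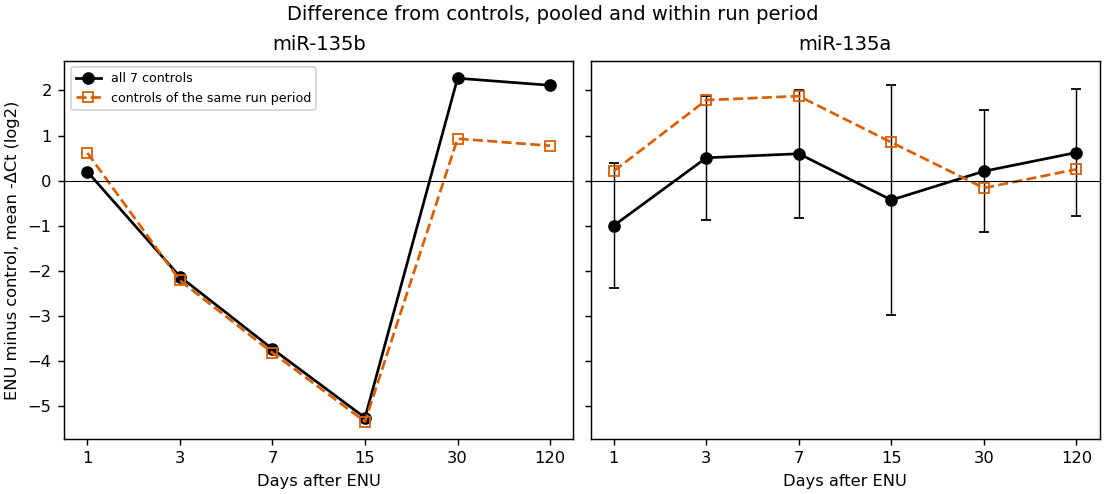
The vertical axis gives the mean -ΔCt of ENU mice minus that of controls (log2) and the horizontal axis the 6 PTDs at even spacing, for miR-135b (left) and miR-135a (right). Filled circles use all 7 controls, with 95% intervals from limma for miR-135a, and open squares use the controls of the same run period. For miR-135b both lines run together to PTD 15 and part at PTDs 30 and 120, where 2.27 and 2.12 become 0.93 and 0.77.

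The raw Ct of miR-135b changed level between arrays run next to each other. In runs 1 to 9, which hold controls, PTD 1 samples and replicates 1 and 2 of PTD 3, it lay between 28.5 and 30.1. In runs 10 to 22, which hold replicates 3, 4 and 5 of PTD 3 and all of PTDs 7 and 15, it lay between 33.02 and 39.7. Replicate 2 of PTD 3, run 9, had a Ct of 29.8, and replicate 3 of PTD 3, run 10 on the same day, had 34.4.

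The later arrays did not hold that level. Run 23, replicate 4 of PTD 1, had a Ct of 31.9 for miR-135b. Runs 24 to 33, which hold 2 controls and all of PTDs 30 and 120, lay between 27.3 and 29.0. Runs 34 and 35, controls 3 and 4 labelled day 30, had 31.5 and 32.0. The Ct was over 33 in 13 arrays, and all 13 were among runs 10 to 22.

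The raw Ct of miR-135a moved less. Its median was 32.94 in runs 1 to 9, 32.03 in runs 10 to 22, 31.95 in runs 24 to 33 and 31.11 in runs 34 and 35. The median -ΔCt in these runs was -11.32, -9.79, -10.07 and -8.80. Where the Ct of miR-135b rose, from runs 1 to 9 to runs 10 to 22 and again to runs 34 and 35, that of miR-135a was lower, and the fall of miR-135b to runs 24 to 33 was not met by a rise. Apart from the well at 38.9, its Ct lay between 31.15 and 33.48 in runs 1 to 33.

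The difference of the 2 Ct values within an array does not depend on the reference RNAs. The Ct of miR-135a minus that of miR-135b averaged 2.38 ± 2.15 cycles (SD, n = 7) in the controls. The 5 mice of PTD 1 averaged 3.57 ± 1.42 cycles and those of PTD 3 -0.263 ± 2.94 cycles, while PTD 7 had -1.96 ± 0.634 cycles and PTD 15 had -2.46 ± 4.05 cycles (SD, n = 5). The 4 mice of each later PTD averaged 4.44 ± 0.0873 cycles at PTD 30 and 3.87 ± 0.269 cycles at PTD 120 (SD, n = 4). miR-135b had the higher Ct of the pair in 14 arrays, 12 of them among runs 10 to 22 and the other 2 the controls of run period 3.

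**Figure D3:**
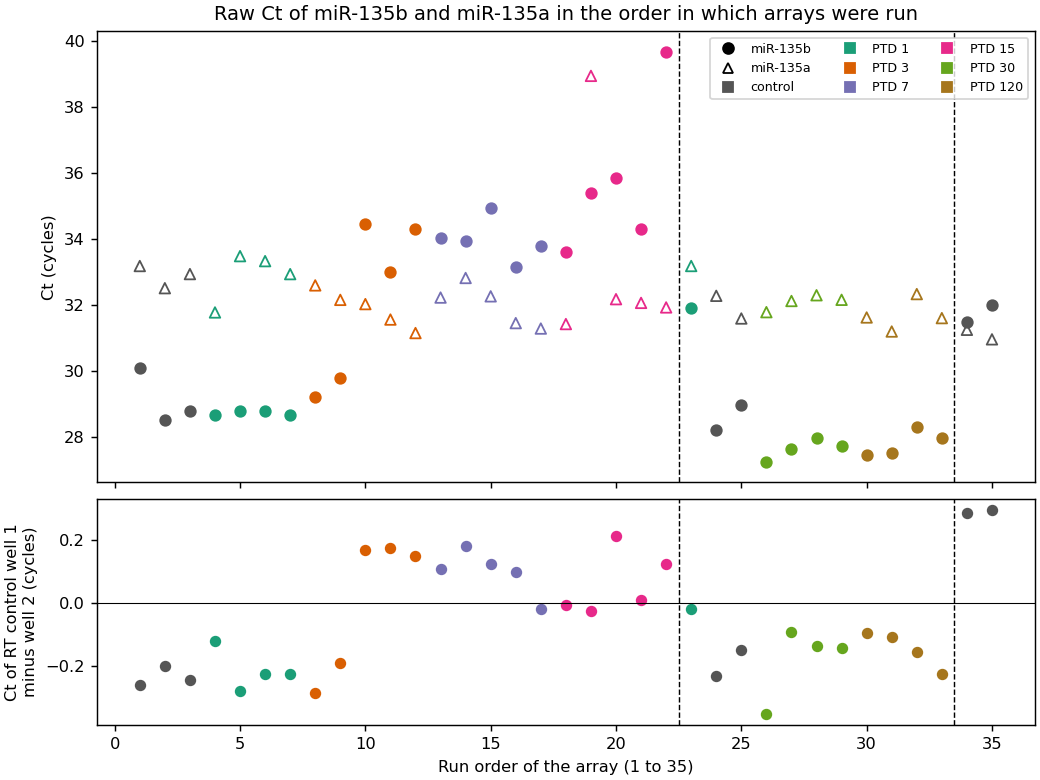
The upper panel plots the raw Ct (cycles) of miR-135b (filled circles) and miR-135a (open triangles) for the 35 arrays in run order, and the lower panel the Ct of the first minus that of the second reverse transcription (RT) control well (cycles). Colours give the groups and dashed lines separate the 3 run periods. The Ct of miR-135b steps from 29.8 at run 9 to 34.4 at run 10, where the control well difference turns from negative to positive.

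The control wells moved with miR-135b. All 12 arrays with a positive control well difference had a Ct of miR-135b over 31, and of the 23 arrays with a negative difference 4 did, namely replicate 4 of PTD 1, replicate 5 of PTD 7 and replicates 1 and 2 of PTD 15. The -ΔCt of miR-135b and the control well difference were each taken as deviations from the group mean, and over the 35 arrays they were inversely related. Pearson's r was -0.663 and Spearman's rho -0.652, and leaving out the 2 arrays whose difference lay farthest from the median gave r of -0.645. With deviations taken within each group and run period, over 34 arrays, r was -0.643 and rho -0.467, and the step inside PTD 3 lies within run period 1. The order of the raw Ct of miR-135b by run time was known when it was chosen, and arrays run next to each other share a level. These coefficients are therefore given as a description, and no p value is printed for them.

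The relation of miR-135a to the control wells had the opposite sign. Pearson's r was 0.421 (permutation test, p = 0.00697, adjusted p = 0.0105 over the 3 relations computed) and Spearman's rho 0.484 (permutation test, p = 0.00707), and r was 0.332 without the 2 arrays farthest from the median. Within each group and run period r was 0.285 (permutation test, p = 0.128) and rho 0.339 (permutation test, p = 0.0845). The p values are too small, since the arrays of a group that were run next to each other are not independent. The adjusted p value also rests in part on the relations of miR-135b, which was chosen by its values. The deviations of miR-135b and miR-135a themselves had r of -0.122 and rho of -0.021, and r was 0.022 without 2 such arrays.

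The control well difference varied most inside the controls and PTD 3, with SDs of 0.250 and 0.222 cycles. Without these 2 groups r was -0.469 and rho -0.476 for miR-135b, over 23 arrays. For miR-135a r was then 0.218 (permutation test, p = 0.454) and rho 0.183 (permutation test, p = 0.432), so that its relation rests on those 2 groups.

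**Figure D4:**
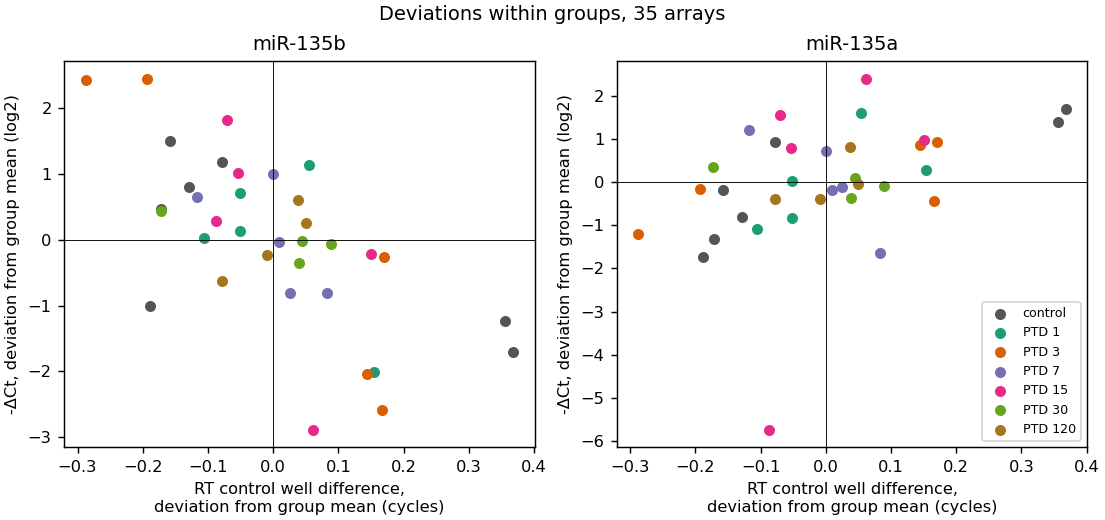
Each point is 1 of the 35 arrays, with the control well difference as a deviation from its group mean (cycles) on the horizontal axis and the -ΔCt as a deviation from its group mean (log2) on the vertical axis. The points of miR-135b (left) fall to the right with r = -0.663, and those of miR-135a (right) rise with r = 0.421.

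Inside PTD 3 and inside the controls, the shift between arrays of positive and negative control well difference was set beside that of all 376 miRNAs. Treatment, day and run period are the same for the 5 mice of PTD 3. In the controls both positive arrays are labelled day 30 and make up run period 3, while 3 of the 5 negative ones are labelled day 1, so that there the control wells, the run period and, in part, the label day cannot be told apart. In PTD 3 the 3 positive arrays, replicates 3, 4 and 5, had a mean -ΔCt of miR-135b that differed by -4.07 from the 2 negative arrays, rank 4 of 376 from the lowest, while the median shift was 0.10. In the controls the 2 positive arrays, those of run period 3, differed by -2.06 from the other 5, rank 12, with a median of 0.63. The order of the raw Ct of miR-135b by run time was known when it was chosen, so nothing is read from its ranks. A shift under -2 was found for 33 miRNAs in PTD 3 and for 12 in the controls, of which 11 were shared, 33.3% of the first list and 91.7% of the second.

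miR-135a shifted the other way in both groups. Its mean -ΔCt was 1.14 higher in the positive arrays of PTD 3, rank 357 of 376 from the lowest, and 2.17 higher in those of the controls, rank 339.

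**Figure D5:**
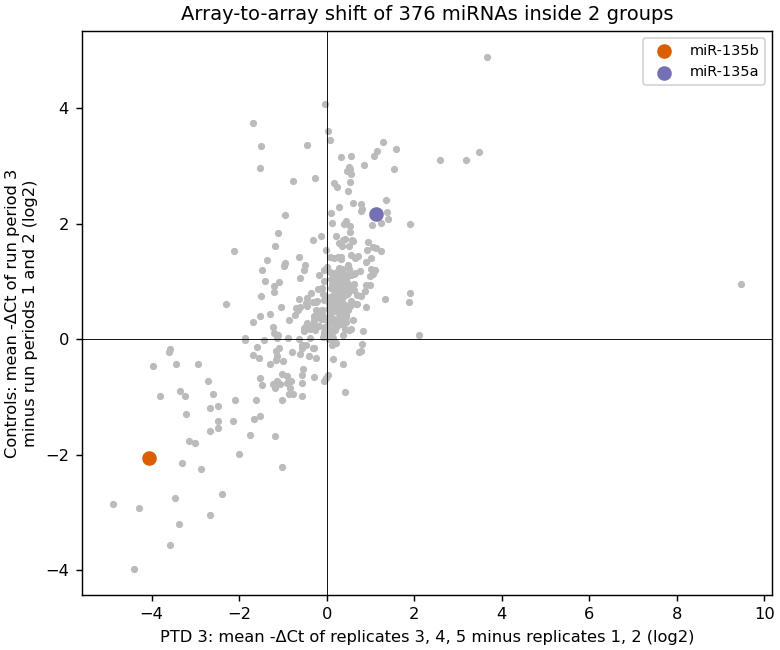
Each point is 1 of 376 miRNAs, with its mean -ΔCt in replicates 3, 4 and 5 minus that in replicates 1 and 2 of PTD 3 (log2) on the horizontal axis and its mean in the controls of run period 3 minus that in the other 5 controls (log2) on the vertical axis. miR-135b lies at -4.07 and -2.06, in the lower left, and miR-135a at 1.14 and 2.17 in the upper right.

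All samples of PTDs 7 and 15 were run after this change of level, and no control was run between run 4 and run 23. For both miR-135b and miR-135a at PTDs 7 and 15, time after ENU and place in the run order cannot be told apart. With the control well difference as a covariate in the fit, the log2 differences of miR-135b were -3.07 at PTD 7 and -4.68 at PTD 15, and its sign at PTD 1 turned, from 0.20 to -0.21.

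The miRNAs whose group means ran most like those of miR-135b, by Pearson's r over 7 group means, were miR-883a-5p (0.991), miR-742 (0.987), miR-681 (0.985), miR-292-5p (0.980) and miR-302c* (0.976). miR-302c* and miR-292-5p come from clusters known from embryonic stem cells. Inside PTD 3 their shifts between positive and negative arrays lay between -3.58 and -1.68 on the log2 scale, and 79 of all 376 miRNAs had a shift under -1. The 5 were chosen over means that include PTD 3 and the controls, so nothing is read from the direction they share. In the controls the corresponding shift was -3.56 for miR-742, -2.13 for miR-681, -0.42 for miR-292-5p, -0.17 for miR-302c* and 0.30 for miR-883a-5p.

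miR-135a was 163rd in this ranking, with r of 0.098. The miRNAs most like miR-135a were miR-133a (0.856), let-7g (0.853), miR-350 (0.848), miR-330 (0.834) and miR-122 (0.832). let-7g is the neighbour of Mir135a-1 on chromosome 9. These coefficients are descriptions over 7 means that share the reference RNAs and the arrays of each group.

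miRNAs reported beside miR-135b in colorectal tumours were taken as a list of 5, namely miR-21, miR-31, miR-96, miR-133b and miR-183. Only miR-96, whose cluster is known from sensory epithelia and tumours, was called at any PTD, higher at PTD 30 by 1.75 on the log2 scale (SE 0.56, limma, adjusted p = 0.435), where 1.6% of all miRNAs were called higher. The medians of the list were -0.32, 0.36, 0.94, 0.87, 0.70 and 0.72 from PTD 1 to PTD 120, and those of all miRNAs -0.37, 0.02, 0.19, 0.36, 0.54 and 0.46. At PTD 7 the members lay between 0.33 (miR-21) and 1.15 (miR-133b), and at PTD 15 between 0.44 (miR-21) and 1.27 (miR-183). At PTD 120 they lay between -1.16 (miR-133b) and 1.12 (miR-96). The list was not split by the direction reported in tumours.

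Of 9 brain miRNAs, 1 was called lower at PTD 7 and 2 higher at PTD 15. miR-9*, the passenger strand of the neural miR-9, was lower by 2.31 at PTD 7 (limma, adjusted p = 0.00847), and miR-138 and miR-219, the latter known from oligodendrocytes, were higher at PTD 15 by 1.33 and 1.23 (limma, adjusted p = 0.0652 and 0.0375). Of all miRNAs 7.45% were called lower at PTD 7 and 6.65% higher at PTD 15. The medians of the brain list at the 6 PTDs were -0.41, 0.38, 0.50, 0.46, 0.55 and 0.64.

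In whole liver, fewer cells of a type and less RNA per cell cannot be told apart, so markers of other cell types are given beside these values. No member of the hepatocyte (4), endothelial (2), stromal (3) or epithelial (5) lists was called at any PTD. The mean -ΔCt over the hepatocyte list ran from 4.12 to 6.14 in the controls, from 4.91 to 6.22 in the mice of PTD 7, from 4.22 to 6.49 in those of PTD 15 and from 5.34 to 6.42 in those of PTD 30. Over the epithelial list it ran from -7.74 to -5.49 in the controls, from -7.61 to -5.93 in PTD 7, from -6.89 to -6.13 in PTD 15 and from -7.76 to -5.40 in PTD 30. Each ENU group overlapped the controls for both lists. The hepatocyte list ran from 3.55 to 5.18 at PTD 1, where miR-135a was lowest, below all mice of PTD 30 and of PTD 120 (5.44 to 6.25). The leukocyte list at PTD 1 (-4.44 to -2.77) also lay below PTD 30 (-2.48 to -1.21) and PTD 120 (-1.89 to -1.27). The endothelial, stromal, epithelial and erythroid lists overlapped. The median log2 difference of all miRNAs from the controls was -0.37 at PTD 1, 0.54 at PTD 30 and 0.46 at PTD 120. How many of them showed no overlap was not counted. Of 6 leukocyte miRNAs, miR-150 of lymphocytes (-1.72, limma, adjusted p = 0.108) and miR-146a (-1.33, limma, adjusted p = 0.669) were called lower at PTD 1, and miR-142-3p was called higher at PTD 120 (1.35, limma, adjusted p = 0.446). The erythroid pair miR-144 (1.52, limma, adjusted p = 0.0162) and miR-451 (1.04, limma, adjusted p = 0.0635) was called higher at PTD 15, where miR-135b was lowest. Of all miRNAs 0.798% were called lower at PTD 1, 1.33% higher at PTD 120 and 6.65% higher at PTD 15. With the controls of the same run period these shares were 0%, 0% and 35.6%, so none of the leukocyte calls was kept. The part of these markers in the values of miR-135b and miR-135a was not tested.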

How the data were processed

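The authors isolated small RNA from liver, copied it into cDNA and ran it on SABiosciences arrays of 384 wells with SYBR Green. Per the labels, the deposited values are the Ct of each well, calculated by SDS 2.3 with a fixed threshold of 0.15 over 40 cycles, and they are not normalized. The files name wells only, and the miRNA of each well was taken from the names in the supplement of the study. Wells with Undetermined in place of a Ct, 15 in all and none of miR-135, were left as missing. -ΔCt used the mean Ct of 4 reference RNAs, as in the methods of the study.

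Each ENU group was compared with the 7 controls in limma (version 3.58.1, R 4.3.3) across 376 miRNAs, two-sided, 1 fit per PTD, with Benjamini-Hochberg adjustment. The fit was tested on simulated data. Relations of miR-135a within groups used 100000 permutations in numpy (version 2.4.6), with ranks from scipy (version 1.17.1). Those of miR-135b, for which the same test was planned, entered the adjustment over the 3 relations and are given as a description. Controls were pooled, since labels and methods differ on how many belong to each day. Same-numbered mice are different animals. Run periods were split at gaps of over 14 days. miRNAs were named by their likeness to a member over 7 group means (5 each) or by the lists. The members and lists were chosen with earlier results of these data known. Hairpins were matched by symbol, 3 of 3 genes, and aligned end to end. Depth does not apply, and the number of mice limits the precision.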

Additional observations from a re-analysis of the deposited data

Results flagged for a closer look

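The differences of miR-135b from the controls at PTDs 7 and 15 lay opposite to those at PTDs 30 and 120 in every sample. The mean log2 differences of PTD 7 lay 6.01 from those of PTD 30 and 5.85 from those of PTD 120, and those of PTD 15 lay 7.54 and 7.38 away, respectively. These differences were not tested, since miR-135b was chosen for them, and the PTDs were run in different run periods.

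Replicate 2 of PTD 15 lay far from the other 4 samples of its group for miR-135a. Its gap to the nearest sample was 0.802 of the range of the group, above the critical value of 0.71 for 5 samples. Its Ct of 38.9 carries the NAW flag, while miR-135b in the same array had a Ct of 35.4. Of 14 groups examined, 1 was picked out, and chance picks out about 1 in 20.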

How the results depend on the processing

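Of 188 values under other settings, 177 kept their direction where called and their side of the threshold, or moved by less than the spread. With controls of the same run period, miR-135b moved to 0.93 at PTD 30 and 0.77 at PTD 120. miR-135a passed the threshold with the controls labelled day 1 at PTD 3 (1.79), PTD 7 (1.88), PTD 30 (1.49) and PTD 120 (1.90), with those of the same run period at PTD 3 (1.79) and PTD 7 (1.88), and with those labelled day 30 at PTD 1 (-1.96). With the controls labelled day 30 it was -0.45 (PTD 3), -0.36 (PTD 7), -0.75 (PTD 30) and -0.34 (PTD 120), so its direction depends on the controls used. With controls of the same run period, 7.98% (PTD 3), 33% (PTD 7) and 40.4% (PTD 15) of all miRNAs were called. At the other PTDs the shares were 1.06% (PTD 1), 0.798% (PTD 30) and 0% (PTD 120). With the controls labelled day 1, 37.5% of all miRNAs were called at PTD 30 and 27.9% at PTD 120, and with those labelled day 30, 13% at PTD 1. The relation of miR-135a to the control wells was weaker without the controls and PTD 3 (0.218) and within group and run period (0.285), a setting chosen after seeing the data. The cause was not tested.

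With each sample left out in turn, miR-135b ranged from -0.09 to 0.70 at PTD 1, -2.75 to -1.49 at PTD 3, -4.02 to -3.49 at PTD 7, -5.72 to -4.54 at PTD 15, 1.99 to 2.52 at PTD 30 and 1.83 to 2.37 at PTD 120. The sign of miR-135b at PTD 1 turned without replicate 3 or 4 of the controls labelled day 30 or replicate 1 of PTD 1, and with the control wells as a covariate (-0.21). miR-135a ranged from -1.40 to -0.72, 0.22 to 0.81, 0.29 to 1.01, -1.03 to 1.00, -0.08 to 0.49 and 0.33 to 0.91, called in none. Its sign at PTD 15 turned without replicate 2 and with NAW wells treated as missing (both 1.00), the latter a setting chosen after seeing the data, with Ct above 35 set to 35 (0.36) and with the controls labelled day 1 or of the same run period (0.85). At PTD 30 it turned with the median Ct of each array (-0.20), with controls of the same run period (-0.17) and without the controls labelled day 1 of replicate 1 (-0.08) or 3 (-0.01). At PTD 1 it turned with the controls labelled day 1 (0.28) or of the same run period (0.21), and at PTD 7 with the control wells as a covariate (-0.03).

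The replicate numbers do not pair mice, with correlations of same-numbered samples between -0.301 and 0.519. With the replicate number as a block, miR-135b was 0.25, -1.46, -3.87, -4.45, 2.41 and 2.27 and miR-135a -1.14, 0.10, 0.11, -1.24, 0.12 and 0.53 at the 6 PTDs, and the DEMs over all miRNAs were 5, 5, 29, 27, 6 and 3 in place of 5, 8, 37, 43, 6 and 5. Late Ct limits miR-135b most at PTD 15, where values above 35 set to 35 gave -4.08.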
